A study of Mus musculus with 12 samples.

Results

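Ductal and progenitor cell genes were followed as 8 transcripts, Epcam, Krt7, Krt19, Sox9, Spp1, Prom1, Cd24a and Cftr, chosen by gene symbol. All 8 were found among the 46095 genes of the count table, and all 8 passed the filter on low counts, which left 14666 genes. The 12 libraries came from liver tumours that the carcinogen diethylnitrosamine (DEN) had induced in mice. Of these, 7 were labelled Pck1-null (KO) and 5 wild-type (WT) by genotype. Pck1 encodes the cytosolic enzyme that turns oxaloacetate into phosphoenolpyruvate. All 12 were labelled as hepatocellular carcinoma (HCC) in liver tissue. The labels do not describe the null allele, and give no strain, age, sex, dose or time.

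Bile ducts are lined by cholangiocytes, epithelial cells that share a fetal precursor, the hepatoblast, with hepatocytes. When the liver is injured, cells with ductal markers can spread from the portal tracts, and hepatocytes and hepatocyte tumours can switch on part of the same programme, often Sox9 and Spp1 before the ductal keratins. Sox9 is a transcription factor of the ductal lineage, Epcam and Prom1 (CD133) are surface proteins of ducts and progenitor cells, Krt7 and Krt19 are the filament keratins of duct epithelium, and Cftr is the apical chloride and bicarbonate channel of cholangiocytes. Spp1 encodes osteopontin, a secreted protein that binds integrins, and Cd24a a small lipid-anchored surface protein. Spp1 is also made by macrophages, and Cd24a by granulocytes, B cells and red cell precursors.

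The genes lie on 6 chromosomes of the GRCm38.p6 assembly, the same assembly as mm10. Epcam is on chromosome 17 from 87635979 to 87651127, Krt7 on 15 from 101412403 to 101427806, and Krt19 on 11 from 100140810 to 100145926. Sox9 is also on chromosome 11, from 112782210 to 112787757, and the pair Spp1 and Prom1 is on 5, from 104435111 to 104441053 and from 43993621 to 44102047. Cd24a is on chromosome 10 from 43579169 to 43584265 and Cftr on 6 from 18170687 to 18322770. RefSeq promoter windows were at hand for 5 of the 8 genes. The 250 bases before the start are shown for Epcam, Krt7 and Cftr, whose levels went together over the libraries. They are also shown for the first of the Spp1 starts listed. The Spp1 level parted from Krt19 (Pearson r = 0.06), but had r = 0.77 with Epcam and 0.71 with Cftr. Capitals mark the motifs found.
Epcam (chr17:87635729-87635978, plus strand): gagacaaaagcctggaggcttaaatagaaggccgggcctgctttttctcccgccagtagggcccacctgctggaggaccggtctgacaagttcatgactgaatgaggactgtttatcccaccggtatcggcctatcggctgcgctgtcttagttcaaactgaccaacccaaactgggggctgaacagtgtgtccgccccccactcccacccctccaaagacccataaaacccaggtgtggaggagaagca
Krt7 (chr15:101412153-101412402, plus strand): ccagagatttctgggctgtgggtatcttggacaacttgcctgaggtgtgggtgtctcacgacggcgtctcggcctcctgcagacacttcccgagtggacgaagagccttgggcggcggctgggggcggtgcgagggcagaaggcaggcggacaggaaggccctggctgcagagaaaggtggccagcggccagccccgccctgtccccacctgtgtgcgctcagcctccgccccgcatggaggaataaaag
Cftr (chr6:18170437-18170686, plus strand): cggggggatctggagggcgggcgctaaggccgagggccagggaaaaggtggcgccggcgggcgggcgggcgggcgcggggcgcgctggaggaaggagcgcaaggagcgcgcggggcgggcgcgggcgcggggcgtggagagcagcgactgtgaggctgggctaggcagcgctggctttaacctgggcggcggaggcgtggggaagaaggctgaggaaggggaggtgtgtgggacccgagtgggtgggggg
Spp1 (chr5:104434861-104435110, plus strand): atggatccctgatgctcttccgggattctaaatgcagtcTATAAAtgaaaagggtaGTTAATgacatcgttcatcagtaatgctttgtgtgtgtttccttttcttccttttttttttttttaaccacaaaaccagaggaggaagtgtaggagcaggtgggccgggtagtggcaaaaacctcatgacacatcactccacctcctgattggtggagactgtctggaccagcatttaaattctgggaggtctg

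Motifs of ductal regulators, and the TATA box as a general promoter element, were searched on both strands of these windows. They were the HNF1 half-site (GTTAAT), the TEAD motif (GGAATG), the RBPJ motif (TGGGAA), a SOX motif (AACAAT) and the TATA box (TATAAA). Among 32851 RefSeq promoter windows of the same length, 6.43% held the HNF1 half-site, 12.6% the TEAD motif, 21.6% the RBPJ motif, 9.42% the SOX motif and 12.4% the TATA box. The Spp1 window held the letters of an HNF1 half-site 194 bases and of a TATA box 211 bases before the start, which do not overlap. Of the windows not shown, that of the first Prom1 start listed held an RBPJ motif, as its reverse complement, 116 bases before the start. Those of the second Spp1 and Prom1 starts held none. Whether any of these motifs acts at its place was not tested. The windows of Epcam, Krt7 and Cftr held none of the 5 motifs. In them G and C made up 56.4%, 66.0% and 76.4% of bases, against 43.6% for Spp1 and a median of 52.4% over all windows.

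The targeted gene was checked first. Pck1 had 219, 709, 1167, 111, 146, 329 and 177 CPM (read counts scaled to library size, with TMM factors) in KO replicates 1 to 7, against 1696, 5598, 5599, 1063 and 5822 CPM in WT replicates 1 to 5. KO replicate 3 lay above WT replicate 4, so the groups overlapped in that pair. The total count was 17462102 to 23663506 in 7 libraries, called shallower here (4 KO and 3 WT), and 43071365 to 46747125 in the other 5, called deeper (3 KO and 2 WT). Xist, the RNA that coats the inactive X, was above 10 CPM in 5 of 7 KO libraries and in 1 of 5 WT libraries. It was taken as a marker of female sex, which the labels do not give. Genotype and sex read in this way are partly confounded, and their parts cannot be fully told apart. The summed CPM of 7 hepatocyte genes ran from 48249 to 131684 in KO and from 49565 to 176553 in WT, so hepatocyte RNA was present in every library. In bulk tumour RNA, fewer cells of a type and less RNA per cell cannot be told apart.

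None of the 8 genes passed the test between the genotypes, and the KO tumours were spread widely among themselves. In edgeR's quasi-likelihood test 0 of 8 had an adjusted p under 0.05, against 0% of all genes tested. At an unadjusted p under 0.05 there was 1 of 8, Cd24a, against 14.7% of all genes. DESeq2 called 0 of 8 (3.41% of all genes) and limma-voom with sample weights 0 of 8 (14.5% of all genes). Of the 8, 7 had a positive edgeR log2 fold change, against 53.7% of all genes, and their median was 0.23, against 0.03 over all genes. In no gene did the groups separate, against 1.21% of all genes.

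**Figure D1:**
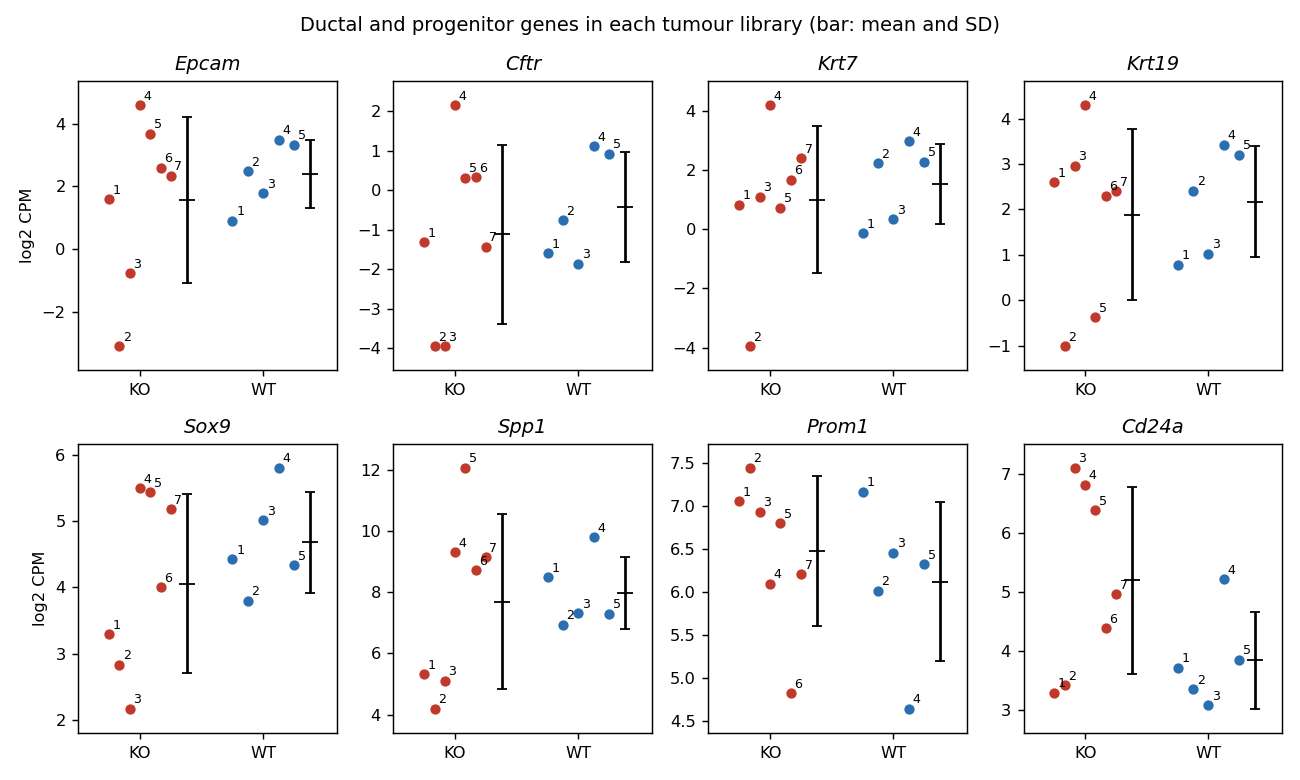
Level of each gene in log2 CPM (prior count 2) in 7 KO and 5 WT libraries, with the replicate number beside each point and the mean and SD beside each group. KO replicate 2 is the lowest point for Epcam, Krt7, Krt19 and Spp1, and a count of 0 is drawn at −3.95, as for Krt7 in KO replicate 2 and Cftr in KO replicates 2 and 3.

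Among the surface and channel genes of duct epithelium, Epcam had 2.97, 0.0538, 0.530, 23.9, 12.7, 5.97 and 5.0 CPM in KO replicates 1 to 7, against 1.81, 5.52, 3.37, 11.1 and 9.98 CPM in WT replicates 1 to 5. KO replicates 4 and 5 lay above every WT library, and KO replicates 2 and 3 below every WT library. KO replicate 2 held 1 Epcam read. Log2 CPM averaged 1.57 ± 2.65 (SD) over the 7 KO libraries, against 2.40 ± 1.08 (SD) over the 5 WT libraries, and the gap of −0.83 had p = 0.553 in an exact permutation test (two-sided, all 792 regroupings). The edgeR log2 fold change was 0.20 ± 0.92 (SE), with adjusted p = 0.934. The edgeR fit compares averages of counts, whereas the other measure averages logarithms, in which very low libraries weigh more.

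Cftr had 8, 0, 0, 245, 53, 55 and 7 reads in KO replicates 1 to 7, against 5, 23, 3, 44 and 73 reads in WT replicates 1 to 5. It was the lowest of the 8 genes in abundance, at 0 to 4.38 CPM in KO and 0.211 to 2.10 CPM in WT. A count of 0 allows up to 0.161 CPM in KO replicate 2 and 0.144 CPM in KO replicate 3, so those libraries lay below every WT library on counts of a few reads. Its log2 CPM averaged −1.12 ± 2.27 (SD) over the 7 KO libraries, against −0.44 ± 1.39 (SD) over the 5 WT libraries, with exact permutation p = 0.551. The edgeR log2 fold change was 0.11 ± 1.08 (SE), with adjusted p = 0.969.

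The ductal keratins were spread as widely. Krt7 had 1.72, 0, 2.07, 18.3, 1.6, 3.15 and 5.22 CPM in KO replicates 1 to 7, against 0.853, 4.65, 1.19, 7.78 and 4.80 CPM in WT replicates 1 to 5. Krt19 had 6.03, 0.431, 7.76, 19.7, 0.709, 4.87 and 5.22 CPM in the KO libraries, against 1.65, 5.27, 1.97, 10.7 and 9.15 CPM in the WT libraries. KO replicate 4 was the highest of the 12 libraries for both, and KO replicate 2 the lowest. KO replicate 5 had the second lowest Krt19 although its Epcam was the second highest. The log2 fold change was 0.25 ± 0.95 (SE) for Krt7 and 0.15 ± 0.79 for Krt19, with edgeR adjusted p = 0.923 and 0.943. The difference of mean log2 CPM was −0.54 for Krt7 (exact permutation p = 0.720) and −0.28 for Krt19 (exact permutation p = 0.771).

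The simple keratins Krt8 and Krt18, which hepatocytes also use, were far more abundant. Krt8 ran from 516 to 1368 CPM in KO, with a median of 914, and from 380 to 1006 CPM in WT, with a median of 451. Krt18 ran from 415 to 949 CPM in KO, with a median of 574, and from 314 to 634 CPM in WT, with a median of 466. For both, 6 of 7 KO libraries lay above the WT mean. Their edgeR log2 fold changes were 0.62 ± 0.33 and 0.41 ± 0.24 (SE), with adjusted p = 0.397 and 0.446, and limma-voom with sample weights gave adjusted p = 0.0430 and 0.0674.

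Sox9, the transcription factor, had 9.71, 7.05, 4.43, 45, 43.1, 15.9 and 36.1 CPM in KO replicates 1 to 7, against 21.4, 13.9, 32.2, 55.7 and 20.1 CPM in WT replicates 1 to 5. KO replicates 1, 2 and 3 lay below all 9 other libraries, and no KO library lay above WT replicate 4. Log2 CPM averaged 4.06 ± 1.35 (SD) over the 7 KO libraries, against 4.68 ± 0.76 (SD) over the 5 WT libraries, with exact permutation p = 0.371. The edgeR log2 fold change was −0.31 ± 0.58 (SE), with adjusted p = 0.825. Within the shallower libraries, which hold KO replicates 1, 2, 3 and 7, the difference of mean log2 CPM was −1.71, and within the deeper ones 0.91.

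Spp1 had the widest range of the 8 in CPM. It had 39.9, 18.1, 34.5, 627, 4254, 421 and 560 CPM in KO replicates 1 to 7, against 357, 123, 158, 885 and 156 CPM in WT replicates 1 to 5. KO replicates 1, 2 and 3 again lay below all 9 other libraries, and KO replicate 5 was the only KO library above all WT libraries. The KO libraries spanned 234-fold and the WT libraries 7.21-fold. As a fold range this was not the widest, since Epcam spanned 445-fold in KO, and Krt7 and Cftr 9.12-fold and 9.96-fold in WT. Krt7 and Cftr reached a count of 0 in KO, so they have no fold range there. Log2 CPM averaged 7.69 ± 2.87 (SD) over the 7 KO libraries, against 7.96 ± 1.18 (SD) over the 5 WT libraries, with exact permutation p = 0.846. The edgeR log2 fold change was 1.34 ± 1.19 (SE), with adjusted p = 0.609, and without KO replicate 5 it was −0.24. The difference of mean log2 CPM was −2.59 among shallower libraries and 2.91 among deeper ones. In an edgeR fit with an interaction of genotype and depth class, Spp1 had an unadjusted p = 0.0302 and an adjusted p = 0.514, and 0 of 14666 genes passed (1401 at an unadjusted p under 0.05).

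For both Sox9 and Spp1 the 3 lowest libraries were KO replicates 1, 2 and 3, an order found in 2.49% of all genes and picked out after the values were seen. Glul, glutamine synthetase and a liver target of beta-catenin, was highest in the same libraries, at 15902, 9407 and 11642 CPM. In the other 9 libraries Glul was 555, 31.7, 383 and 448 CPM in KO replicates 4 to 7, against 2764, 652, 116, 284 and 264 CPM in WT replicates 1 to 5. KO replicate 5, the Spp1-richest library, had the lowest Glul. What links these levels was not tested.

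Macrophages were followed as the other known source of Spp1. The summed CPM of 7 macrophage genes ran from 64.8 to 460 in KO, with a median of 223, and from 306 to 529 in WT, with a median of 509. KO replicate 5 had the lowest sum, 64.8, and the highest Spp1. By edgeR 0 of the 7 macrophage genes had a positive log2 fold change, against 53.7% of all genes. At an unadjusted p under 0.05 there were 2 lower, against 7.44% of all genes, and 0 had an adjusted p under 0.05. Clec4f of Kupffer cells was at −2.47 ± 0.87 (SE, adjusted p = 0.250) and Gpnmb at −1.67 ± 0.70 (adjusted p = 0.305). Limma-voom with sample weights called 1 of the 7, against 14.5% of all genes, and DESeq2 called 0, against 3.41%. The 1 was Clec4f, at −3.53 with limma-voom adjusted p = 0.0193.

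**Figure D2:**
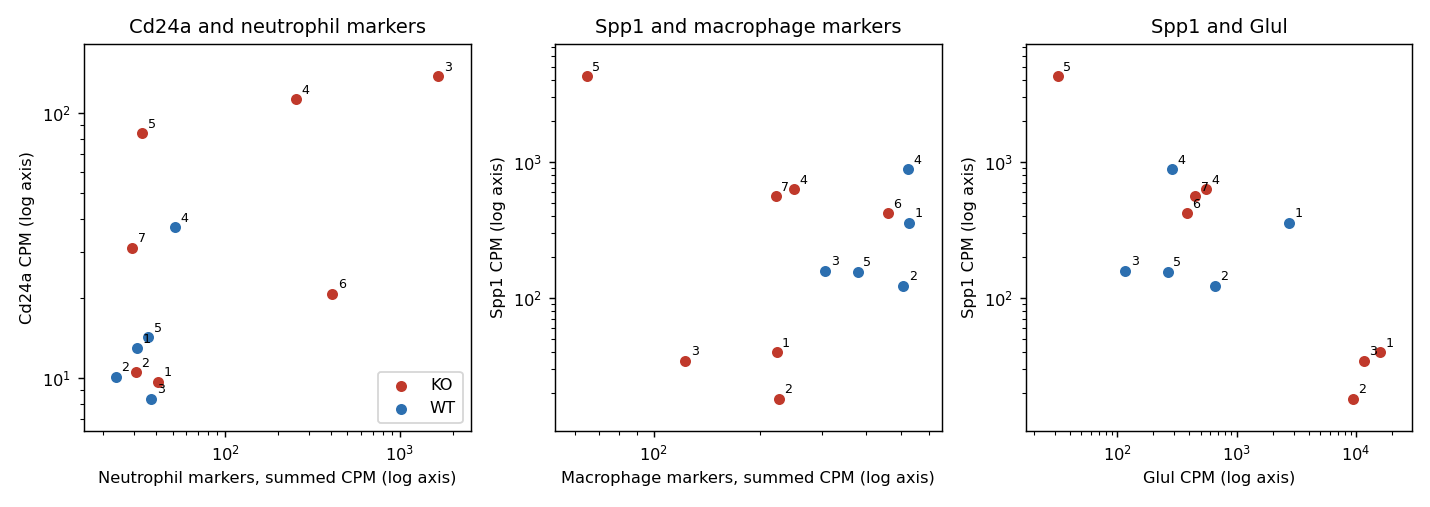
Cd24a against the summed CPM of 11 neutrophil genes (left), Spp1 against the summed CPM of 7 macrophage genes (middle) and Spp1 against Glul (right), in CPM on log axes, with 1 point a library and its replicate number. KO replicate 5 combines 4254 CPM of Spp1 with the lowest macrophage sum (64.8) and the lowest Glul (31.7), and KO replicates 1, 2 and 3 sit at the lower right of the Glul panel.

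Prom1, a membrane protein used as a progenitor marker, followed another order. It had 133, 174, 122, 68.3, 111, 28.2 and 73.8 CPM in KO replicates 1 to 7, against 144, 64.7, 87.7, 24.9 and 80.1 CPM in WT replicates 1 to 5. KO replicate 2, the lowest library for 5 of the 8 genes with a tie in Cftr, had the highest Prom1 of all. WT replicate 4, the highest WT library for the 7 other genes, had the lowest. Log2 CPM averaged 6.48 ± 0.87 (SD) over the 7 KO libraries, against 6.12 ± 0.93 (SD) over the 5 WT libraries, with exact permutation p = 0.50, and the edgeR log2 fold change was 0.34 ± 0.44 (SE, adjusted p = 0.739).

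Cd24a had the smallest p of the 8 in the comparison of genotypes. It had 9.71, 10.6, 138, 113, 83.8, 20.8 and 31.1 CPM in KO replicates 1 to 7, against 13.0, 10.1, 8.36, 37.0 and 14.3 CPM in WT replicates 1 to 5. KO replicates 3, 4 and 5 lay above all WT libraries, and KO replicates 1, 2, 6 and 7 within the WT range. The edgeR log2 fold change was 1.81 ± 0.72 (SE), a 3.51-fold higher fitted level, with unadjusted p = 0.0268 and adjusted p = 0.291. DESeq2 gave adjusted p = 0.0943 and limma-voom with sample weights 0.0878. Log2 CPM averaged 5.19 ± 1.59 (SD) over the 7 KO libraries, against 3.84 ± 0.83 (SD) over the 5 WT libraries, and the gap of 1.36 had an exact permutation p = 0.116. By depth class it was 0.69 among shallower libraries and 2.27 among deeper ones.

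Cell types other than ducts that carry Cd24a were read beside it. The summed CPM of 11 neutrophil genes was 1658, 253 and 410 in KO replicates 3, 4 and 6, against 29.4 to 41.2 in the 4 other KO libraries and 23.8 to 51.8 in WT. KO replicate 5 had 83.8 CPM of Cd24a with a neutrophil sum of 33.5, and KO replicate 6 had 20.8 CPM with a sum of 410. Of the 10 neutrophil genes tested, 9 were higher in KO at an unadjusted p under 0.05, against 7.25% of all genes, and 0 at an adjusted p under 0.05 in edgeR's test. Mmp8, the neutrophil collagenase, was at 3.51 ± 1.07 and Mpo, the granule peroxidase, at 3.99 ± 1.24 (SE, edgeR adjusted p = 0.217 and 0.218). DESeq2 called 8 of the 10, against 3.41% of all genes, with an adjusted p of 0.0071 for Mmp8 and 0.00460 for Mpo, and limma-voom with sample weights called 0. Erythroid genes summed to 255 and 101 CPM in KO replicates 3 and 4, to 6.94 in KO replicate 5, and to 26.8 to 51.0 in the other KO libraries, against 26.9 to 62.8 in WT. Of 5 erythroid genes tested, 2 were higher at an unadjusted p under 0.05, against 7.25% of all genes. DESeq2 called 1, Slc4a1 (adjusted p = 0.0399), against 3.41% of all genes. Thus of the 3 libraries highest in Cd24a, KO replicates 3 and 4 were also high in neutrophil and erythroid genes, and KO replicate 5 was not. The part of those cells in the Cd24a level of KO replicates 3 and 4 was not tested.

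Read per length, Spp1 was the most abundant transcript of the 8 in 9 of 12 libraries, Prom1 in 2 (KO replicates 1 and 2) and Cd24a in 1 (KO replicate 3). On the scale of CPM per kilobase of the principal GENCODE M21 transcript (RPKM), the median of Spp1 was 279 in KO and 105 in WT. The medians of Prom1 were 30.4 in KO and 21.9 in WT, of Cd24a 17.1 and 7.16, and of Sox9 3.85 and 5.18. Krt19 had 3.31 in KO and 3.34 in WT, Epcam 2.45 and 2.71, Krt7 0.506 and 1.14, and Cftr 0.0531 and 0.0832. The neighbours Sox9, Krt19 and Epcam had overlapping ranges, at 1.07 to 10.9, 0.273 to 12.5 and 0.0264 to 11.7 RPKM in KO and at 3.36 to 13.5, 1.05 to 6.78 and 0.889 to 5.45 in WT.

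The order of libraries was shared by several genes. KO replicate 4 was the highest of the 12 libraries for 4 of the 8 genes, Epcam, Krt7, Krt19 and Cftr, against 3.61% of all genes. WT replicate 4 was the highest WT library for 7 of 8, against 23.5%, and KO replicate 2 the lowest of the 12 for 5 of 8, against 10.7%. These libraries were picked out after the values were seen. Several of the genes also varied together, so these counts are not independent and only describe the order. The SD of log2 CPM was larger in KO than in WT for 7 of 8, all but Prom1, against 61.0% of all genes, and whether the SDs differ was not tested. The fold range was 445 in KO and 6.13 in WT for Epcam, 10.1 and 4.01 for Sox9, and 45.6 and 6.47 for Krt19. It was 14.2 and 4.43 for Cd24a, and 6.18 and 5.78 for Prom1.

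**Figure D3:**
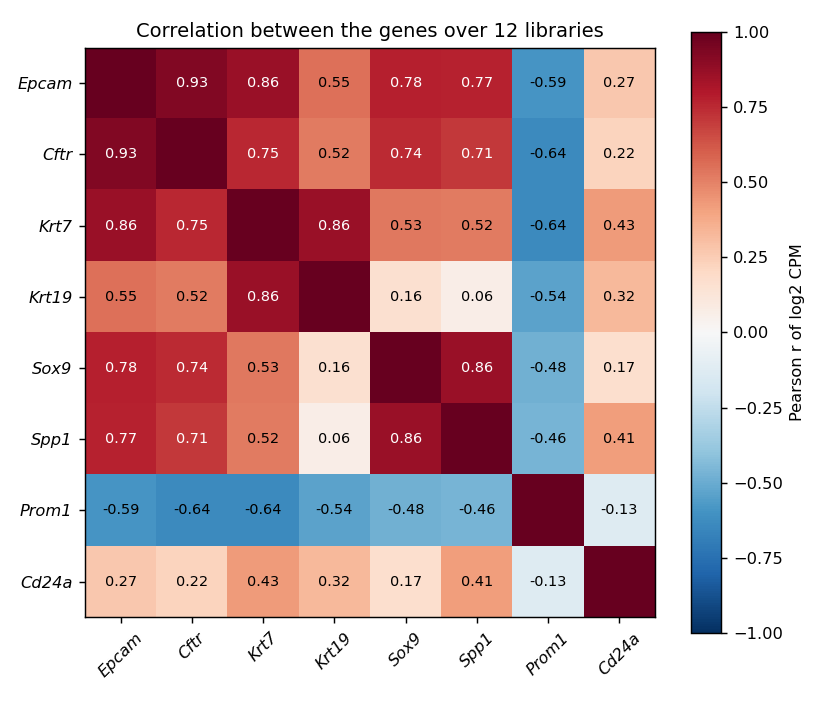
Pearson r of log2 CPM between each pair of the 8 genes over 12 libraries, with red for positive and blue for negative values. Epcam, Cftr and Krt7 form a block at 0.75 to 0.93, Sox9 and Spp1 pair at 0.86, and every pair with Prom1 is negative.

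How far the genes went together was measured over the 28 pairs, with 100000 permutations and Benjamini-Hochberg adjustment over the pairs. Of these, 9 had an adjusted Pearson p under 0.05, all positive, and 7 of the 9 also an adjusted Spearman p under 0.05. Epcam and Cftr were closest, with r = 0.93 and rho = 0.92 (permutation p = 2e-05 and 8e-05, adjusted 0.000560 and 0.00112). Krt7 and Krt19 had r = 0.86 and rho = 0.84 (permutation p = 7e-05 and 0.00115, adjusted 0.000980 and 0.0107). Sox9 and Spp1 had r = 0.86 and rho = 0.92 (permutation p = 0.00041 and 8e-05, adjusted 0.00383 and 0.00112). Epcam and Krt7 had r = 0.86 and rho = 0.69 (permutation p = 0.00099 and 0.0166, adjusted 0.00693 and 0.0464). Without the 2 libraries farthest from the median of the first gene, r was 0.92 for Epcam and Cftr, 0.72 for Krt7 and Krt19, 0.78 for Sox9 and Spp1 and 0.78 for Epcam and Krt7. In the 7 shallower libraries alone these 4 values were 0.90, 0.92, 0.92 and 0.88, and within the 7 KO libraries 0.94, 0.84, 0.90 and 0.85.

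Libraries low in Spp1 stood apart from the rest, so r was also taken over the 9 libraries other than KO replicates 1, 2 and 3. There it was 0.91 for Epcam and Cftr, 0.90 for Krt7 and Krt19, 0.76 for Epcam and Krt7, and 0.66 for Sox9 and Spp1. Between the Epcam group and Sox9 or Spp1, r was lower there. KO replicates 1, 2 and 3 were picked for their low Spp1 and were also the lowest in Sox9. Leaving them out narrows the range of both genes, so a lower r with either cannot be read as a looser link. Epcam had r = 0.78 with Sox9 and 0.77 with Spp1 over 12 libraries (permutation p = 0.00213 and 0.00281, adjusted 0.0114 for each), with rho = 0.76 and 0.80 (permutation p = 0.00643 and 0.00301, adjusted 0.0300 and 0.0169), and r = 0.48 and 0.44 over the 9. Without the 2 farthest libraries, KO replicates 2 and 3, these values were 0.57 and 0.54; no p was computed for them. Cftr had r = 0.75 with Krt7, 0.74 with Sox9 and 0.71 with Spp1 over 12 libraries (permutation p = 0.00284, 0.00551 and 0.00937, adjusted 0.0114, 0.0193 and 0.0292), and 0.74, 0.32 and 0.34 over the 9. The rho of Cftr was 0.75 with Krt7, 0.63 with Sox9 and 0.65 with Spp1 (permutation p = 0.00772, 0.0317 and 0.0237, adjusted 0.0309, 0.0740 and 0.0603). For these pairs the 2 libraries left out were those farthest in Krt7, Sox9 or Spp1, not in Cftr. They were KO replicates 2 and 4, 2 and 3, and 2 and 5 in turn, and r without them was 0.50, 0.42 and 0.66.

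Krt19 and Spp1 had r = 0.06 and rho = 0.13 (permutation p = 0.846 and 0.699, adjusted 0.846 and 0.699), and r = 0.13 without the 2 farthest libraries. Over the 9 libraries other than KO replicates 1, 2 and 3 its r was −0.31, and in the shallower libraries 0.41. KO replicate 5 had 2823 RPKM of Spp1 with 0.450 RPKM of Krt19, and KO replicate 4 had 416 RPKM of Spp1 with 12.5 RPKM of Krt19. Prom1 had a negative r with all 7 other genes, from −0.64 with Krt7 and with Cftr to −0.13 with Cd24a, and none of the 7 had an adjusted Pearson p under 0.05. By rank, 3 of them had an adjusted permutation p under 0.05, with rho = −0.80 for Krt7 (p = 0.00239, adjusted 0.0167), −0.73 for Cftr (p = 0.0101, adjusted 0.0353) and −0.71 for Epcam (p = 0.0120, adjusted 0.0372). Cd24a had no adjusted permutation p under 0.05 with any of the others, and its r lay between −0.13 and 0.43 over 12 libraries. Over the 9 libraries other than KO replicates 1, 2 and 3, Cd24a had r = 0.78 with Epcam, 0.82 with Spp1, 0.69 with Sox9 and 0.68 with Cftr, against 0.02, 0.08, −0.21 and −0.11 in the shallower libraries. Without the 2 libraries farthest in Epcam, KO replicates 2 and 3, the r of Cd24a with Epcam was 0.81. The sets with a high r leave out KO replicate 3, which had the highest Cd24a, 138 CPM, with 0.530 CPM of Epcam and 0 reads of Cftr. A higher r without that library cannot be read as a closer link, and no p was computed for it.

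**Figure D4:**
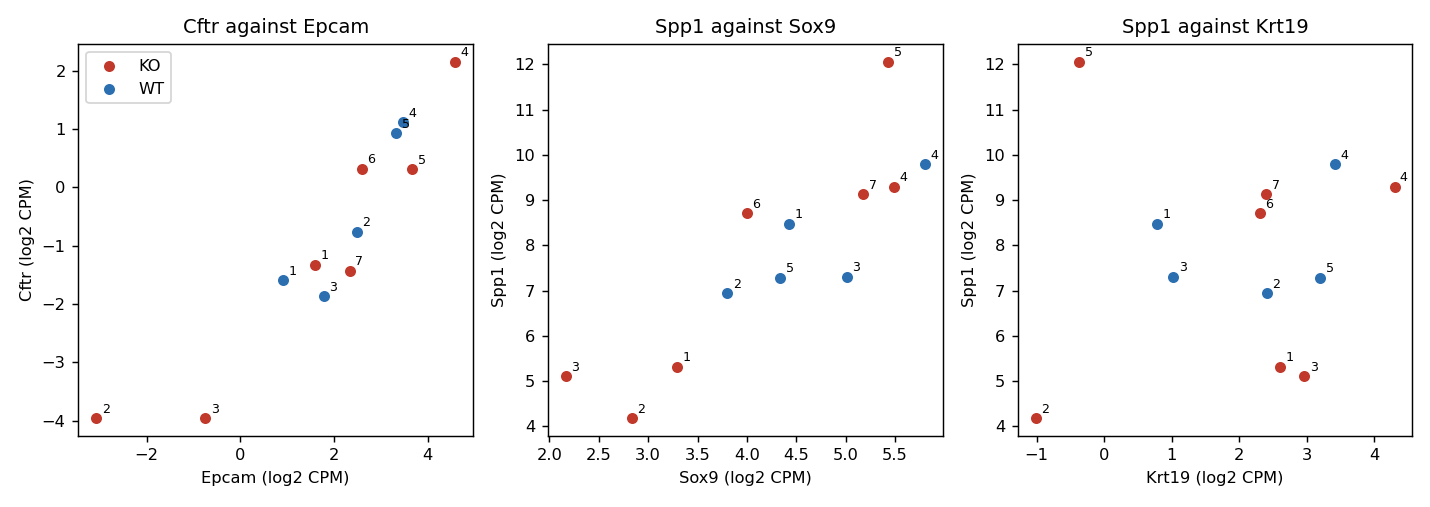
Cftr against Epcam (left), Spp1 against Sox9 (middle) and Spp1 against Krt19 (right) in log2 CPM, with 1 point a library, the replicate number beside it and the genotype as colour. The first pairs run along a line (r = 0.93 and 0.86), while in the right panel KO replicate 5 sits at the upper left and r is 0.06.

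Among 12116 other genes with an average log2 CPM over 1, those whose levels were most like each of the 8 were listed by Pearson r over the 12 libraries, as a description. For Krt7 they were Ano1 (0.97), a calcium-activated chloride channel, Mmp7 (0.95), a secreted protease, and Cldn4 (0.92), a tight junction protein. For Krt19 they were Krt7 (0.86), Cldn4 (0.85) and Mmp7 (0.83), so both keratins shared these genes. Cftr was nearest to Epcam (0.93), Cdh6 (0.92), a cadherin, and Prr15l (0.90). Epcam was nearest to Scara3 (0.98), Cyp2j6 (0.95), a cytochrome P450, and Clstn1 (0.95). Spp1 was nearest to Sox4 (0.96), a transcription factor related to Sox9, Mex3a (0.96), an RNA-binding protein, and Klhl13 (0.95). Sox9 was nearest to Plk2 (0.97), Tspan17 (0.93) and 1600012H06Rik (0.91). Prom1 was nearest to Srp72 and Sec61a1, both of protein entry into the endoplasmic reticulum, and to Parp3 (0.94 each), and Cd24a to Cep76 (0.93), Arhgap44 (0.93) and Spire1 (0.91). All have the same libraries and depths in common.

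Other genes of the ductal programme were counted in the same fit. Of 15 further bile duct epithelium genes, 13 were tested and 0 passed an adjusted p under 0.05, with 7 positive and 6 negative log2 fold changes and a median of 0.13. Without adjustment, 0 were higher and 1 was lower at p under 0.05, against 7.25% and 7.44% of all genes. The 1 lower was Elf3, an epithelial transcription factor, at −1.59 ± 0.58 (SE, adjusted p = 0.260), with 1.98 to 9.57 CPM in KO and 4.79 to 49.4 CPM in WT. Its median was 4.56 CPM in KO and 7.39 CPM in WT. Bicc1, an RNA-binding protein of duct and kidney tubule, was at 1.70 ± 0.83 (adjusted p = 0.367), with 8.79 to 302 CPM in KO and 14.8 to 44.2 CPM in WT. Krt23 was at −0.92 ± 0.45 (adjusted p = 0.368) and the secreted Wfdc2 at −2.36 ± 1.21 (adjusted p = 0.385), and in both the groups overlapped. Wfdc2 had a median of 2.41 CPM in KO and 4.20 CPM in WT, with a highest WT value of 98.6 CPM. Limma-voom with sample weights gave −0.54 for Elf3 and −1.18 for Wfdc2 (limma-voom adjusted p = 0.400 and 0.464). DESeq2 gave no adjusted p for either. The summed CPM of the 15 genes ran from 123 to 988 in KO, highest in KO replicate 5, and from 88.6 to 671 in WT, highest in WT replicate 1.

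Of 15 genes of the Notch and YAP pathways, which steer cells to the ductal fate, all were tested and 0 passed an adjusted p under 0.05 in edgeR's test. Of these, 11 had positive and 4 negative log2 fold changes, with a median of 0.36, and 2 were higher at an unadjusted p under 0.05, against 7.25% of all genes. Rbpj, the DNA-binding partner of Notch, was at 0.36 ± 0.12 (SE, edgeR adjusted p = 0.235), with 18 to 24.2 CPM in KO and 13.3 to 17.7 CPM in WT. Thus 7 of 7 KO libraries lay above all WT libraries, and 1.21% of all genes had groups that did not overlap. Ankrd1, a target of YAP, was at 2.16 ± 0.95 (adjusted p = 0.323), with a median of 4.53 CPM in KO and 4.43 CPM in WT and a highest KO value of 86.0 CPM. Jag1, a Notch ligand, was at 0.74 ± 0.39 and Wwtr1 (TAZ), a partner of TEAD factors, at 0.46 ± 0.25 (adjusted p = 0.397 and 0.398). Limma-voom with sample weights gave an adjusted p of 0.0235 for Rbpj and 0.0202 for Wwtr1, 2 of 15 against 14.5% of all genes.

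Osteopontin receptors were tested in 7 of 7, with 5 positive and 2 negative log2 fold changes, a median of 0.25 and 0 past an adjusted p of 0.05. At an unadjusted p under 0.05 there was 1 of 7, against 14.7% of all genes, the integrin chain Itga9 at −0.57 ± 0.24 (SE, adjusted p = 0.311), with 19.9 to 52.7 CPM in KO and 34.4 to 54.3 CPM in WT. Cd44 was at 0.57 ± 0.33 (edgeR adjusted p = 0.439), with 18.1 to 69.4 CPM in KO and 17.5 to 48.0 CPM in WT. For Cd44, 5 of 7 KO libraries lay above all WT libraries, and the share of all genes with that order was not counted. Of 7 genes of ductal bicarbonate and fluid secretion, 5 were tested, with 4 positive log2 fold changes, 1 negative, a median of 0.31 and 0 past an adjusted p of 0.05. Without adjustment 2 of the 5 were higher at p under 0.05, against 7.25% of all genes. The bicarbonate carrier Slc4a4 was at 0.57 ± 0.19 (adjusted p = 0.235), with 131 to 248 CPM in KO and 80.9 to 140 CPM in WT, and the carbonic anhydrase Car2 at 1.63 ± 0.59 (adjusted p = 0.252), with 11.3 to 119 CPM in KO and 11.6 to 20.4 CPM in WT. Both are also expressed outside ducts. Limma-voom with sample weights gave an adjusted p of 0.0221 for Itga9 and 0.0196 for Slc4a4. These were 1 of 7 and 1 of 5 genes tested, against 14.5% of all genes.

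Of 9 other progenitor genes, 7 were tested, with 5 positive and 2 negative log2 fold changes, a median of 0.72 and 0 past an adjusted or unadjusted p of 0.05 in edgeR's test. The receptor Lgr5 was at 2.36 ± 1.31 (SE, adjusted p = 0.416), with 0.111 to 77.5 CPM in KO and 0.382 to 23.3 CPM in WT. Tnfrsf12a, the receptor of the cytokine TWEAK, was at 0.72 ± 0.41 (adjusted p = 0.419), Kit at −0.85 ± 0.46 (adjusted p = 0.411) and Sox4 at 0.96 ± 0.81 (adjusted p = 0.588). Limma-voom with sample weights called 1 of the 7, against 14.5% of all genes. The 1 was the fetal liver protein Afp, at 3.36 with limma-voom adjusted p = 0.0453. For Afp edgeR gave 1.03 ± 1.29 (SE, adjusted p = 0.730).

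Tissue next to the liver can also carry keratins and Epcam. Mesothelial genes summed to at most 15.3 CPM in KO, in replicate 3, and 3.33 CPM in WT. Of the 5, only Msln was above the filter, with 14.7 CPM in KO replicate 3 and 6.11 CPM in KO replicate 4, against at most 1.32 CPM in WT. Of the pancreas and intestine genes, Ptf1a and Cdx2 had 0 counts in all libraries. Cpa1, a pancreatic enzyme, reached at most 0.0538 CPM in KO and 0.0477 CPM in WT. Vil1 ran from 0.733 to 27.9 CPM in KO and from 0.562 to 20.2 CPM in WT. Pnliprp1, a pancreatic lipase homologue, reached 139, 80.9 and 76.2 CPM in KO replicates 1, 2 and 3, of which replicates 2 and 3 were the lowest libraries in Epcam, against at most 12.8 CPM in WT. Fibroblast and stellate cell genes summed to 77.0 to 318 CPM in KO and 116 to 303 CPM in WT. Limma-voom with sample weights called 1 of the 5, against 14.5% of all genes. The 1 was Dcn, at −1.50 with limma-voom adjusted p = 0.0473.

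**Figure D5:**
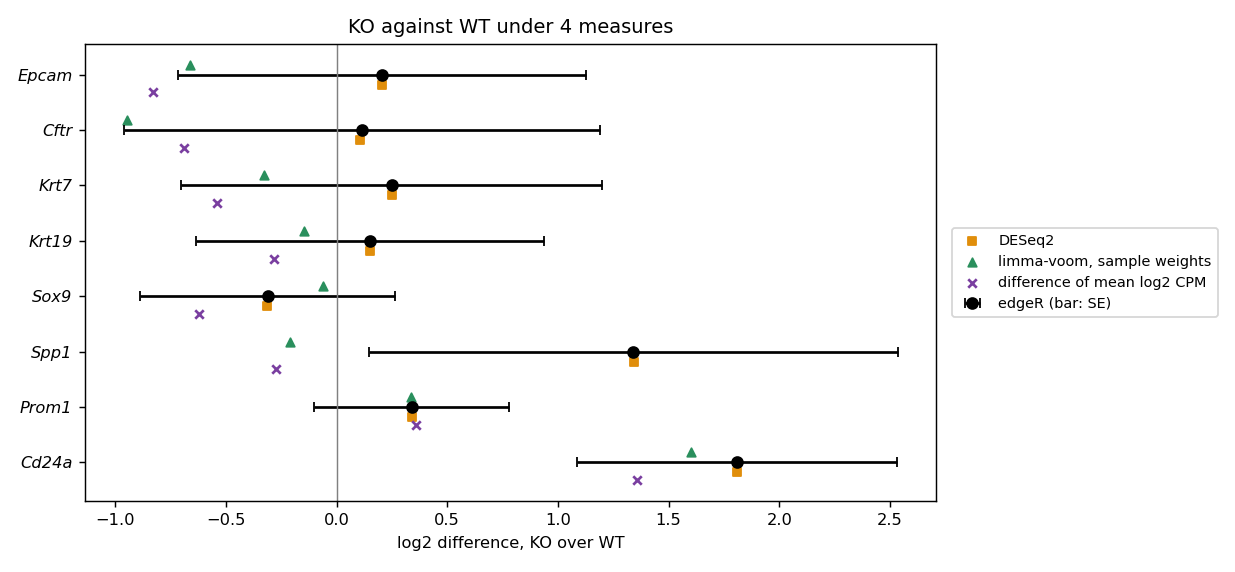
Log2 difference of KO over WT for each gene by edgeR (circle, bar for the SE), DESeq2 (square), limma-voom with sample weights (triangle) and the difference of mean log2 CPM (cross). Epcam, Cftr, Krt7, Krt19 and Spp1 have positive values by edgeR and DESeq2 and negative ones by the other measures, while Cd24a and Prom1 are positive and Sox9 negative by all 4.

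The 4 measures of the genotype difference gave opposite signs for Epcam, Krt7, Krt19, Spp1 and Cftr, and none passed a threshold. With permutation inside Xist classes, where 90 regroupings allow no p under 0.0111, the difference of mean log2 CPM was −0.21 for Epcam, 0.19 for Krt7, 0.10 for Krt19, −0.29 for Sox9, 0.01 for Spp1, 0.55 for Prom1, 1.36 for Cd24a and −0.36 for Cftr (exact p from 0.233 for Cd24a to 1.0 for Spp1). Within the shallower and the deeper libraries in turn, the difference was −2.03 and 0.71 for Epcam, −0.97 and −0.06 for Krt7, −0.0029 and −0.73 for Krt19, 0.82 and −0.27 for Prom1, and −1.88 and 0.85 for Cftr. The sign thus turned between the depth classes in 5 of 8 genes, counting Sox9 and Spp1. How many of all genes turned sign was not counted, so the 5 cannot be set against a share. In the edgeR fit with an interaction of genotype and depth class, 0 of 14666 genes had an adjusted p under 0.05.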

How the data were processed

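RNA was sequenced from 12 DEN-induced liver tumour samples. The table deposited by the authors holds raw whole-number read counts per gene symbol. Per the submitters' processing notes, HISAT2 was the aligner named and mm10 the build. Which counter, strand setting and annotation were used is not given in the sources used here. Reads of overlapping, antisense or near-identical genes therefore cannot be told apart. Per the labels' protocols, RNA was extracted with Trizol and checked for integrity before library construction.

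Genotype labels gave the groups (7 KO, 5 WT), and replicates were numbered in accession order. KO replicate 7 has a title that begins KP, while its genotype is given as null like the others. No label ties each library to its own animal. The spread behind the p-values is thus that of these samples, and may be technical. No pair of libraries in a group agreed within sampling noise (smallest chi-square per degree of freedom 71.0 over 31 pairs). Intervals and limits of a count of 0 (3 counts) cover counting error only.

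Genes kept by filterByExpr (minimum count 10, minimum total 15) entered edgeR 4.0.16, run in R 4.3.3 (TMM, robust quasi-likelihood F-test, Benjamini-Hochberg over all 14666 genes at 0.05). An SE is the fold change (log2) divided by the root of the F statistic. For log2 CPM the prior count was 2. Alternatives were RLE size factors, DESeq2 1.42.0, limma 3.58.1, other filters, covariates, and each library left out. Fits were tested on simulated counts. The members, lists and tests were chosen with earlier results of these data known. The text names the 8 members, up to 4 genes of each list by smallest p, and the 3 genes most like each member. Genes of the pancreas and intestine list are all named. Afp and Glul were added after their values were seen, as were correlations without KO replicates 1, 2 and 3 and in the shallower libraries. The B cell marker list is not reported here.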

Additional observations from a re-analysis of the deposited data

Results flagged for a closer look

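In KO libraries, Krt7 in KO replicate 2 lay far below the others, at −3.95 log2 CPM, which is a count of 0. The gap to the next KO library, at 0.73 log2 CPM in KO replicate 5, took up more of the group's range than the 95% critical value of Dixon's test allows, with a ratio of 0.575 against 0.568. The level of a count of 0 is set by the prior count, so the size of this gap depends on that choice. It was the only one of 16 groups (8 genes in KO and WT) in which the highest or lowest library stood out in this way, and chance flags about 1 group in 20. The same library held 1 read of Epcam, 8 of Krt19 and 0 of Cftr, and it had the highest Prom1 of the 12, at 174 CPM.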

How the results depend on the processing

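No paired analysis was possible because the titles give the groups no shared replicate numbers. The count of 0 members called held under all 21 alternatives. The count of 0 genes called over the whole table became 489 with DESeq2, 2121 with limma-voom with sample weights, 1 without a filter, 1 with at least 1 CPM in 5 libraries, 2 with the title number range and 3 with the depth class as covariate, and it ran from 0 to 65 (without KO replicate 6) with 1 library left out. The edgeR log2 fold change turned negative with limma-voom for Epcam (−0.66), Krt7 (−0.33), Krt19 (−0.15), Spp1 (−0.21) and Cftr (−0.95). With the title number range as covariate Epcam had −0.94, Krt7 −0.43, Spp1 −0.50 and Cftr −1.51, and with the depth class −0.49, −0.044, −0.020 and −1.01. With 1 library left out it ran from −0.48 to 0.50 for Epcam, −0.75 to 0.66 for Krt7, −0.47 to 0.49 for Krt19, −0.56 to 0.077 for Sox9, −0.24 to 2.10 for Spp1, and −0.93 to 0.56 for Cftr. For Cd24a it stayed between 1.44 and 2.34 over all alternatives (adjusted p from 0.0878 to 0.511), and for Prom1 between 0.11 and 0.66. The difference of mean log2 CPM turned positive with permutation within Xist classes for Krt7 (0.19), Krt19 (0.10) and Spp1 (0.0077). With 1 library left out it ran from −1.07 to 0.28 for Krt7, −0.69 to 0.20 for Krt19, −1.0 to 0.31 for Spp1 and −0.012 to 0.63 for Prom1. Of 168 fold changes and 136 differences under alternatives, 26 and 17 had the opposite sign. None of the fold changes had an adjusted p under 0.05, and none of the differences with a test had an exact permutation p under 0.05. Among the 17 were 5 in the deeper libraries alone (Epcam 0.71, Sox9 0.91, Spp1 2.91, Prom1 −0.27 and Cftr 0.85). The cause of these turns was not tested. Depth limits Cftr, with a count of 0 in KO replicates 2 and 3, and Krt7, with a count of 0 in KO replicate 2.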
